A study of Bos taurus with 96 samples.

Results

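The genes described here are 7 adipokines, proteins that fat tissue secretes into the blood or into its own surroundings: LEP (leptin), ADIPOQ (adiponectin), RETN (resistin), CFD (adipsin), RARRES2 (chemerin), NAMPT (visfatin) and AGT (angiotensinogen). They were chosen by name, and their probes were found by the RefSeq accession the array design gives a probe (5 genes) or by the probe tables of the study (ADIPOQ and NAMPT). They are 7 of the 10653 genes named among the tested probes, and 12 of the 34227 tested probes belong to them. A further LEP probe was on the arrays but outside the tested set, which makes 13 probes in all. Where a gene had several probes, the lead probe was the tested probe with the highest mean over all arrays, and values are those of the lead probe unless stated otherwise.

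The samples were RNA from steers of 3 breeds, Angus, Hereford and Wagyu x Angus, hybridised to 96 Agilent bovine arrays with a single dye. The series description gives an age of 26 months, and every sample is labelled with 259 days in a feedlot. Of these arrays, 60 held fat from 5 depots: intramuscular fat (IMF) dissected out of the M. longissimus dorsi, intermuscular fat (Inter), kidney fat (Kid), omental fat (Omen) and subcutaneous fat over the rump (SC), with 12 arrays per depot and 4 per breed within it, all from animals of the pasture diet. The other 36 held longissimus dorsi muscle (LD) with its IMF still inside, 24 from animals on pasture (8 per breed) and 12 from animals given supplement feed (4 per breed). Per the study's methods the supplement was given after weaning and before the feedlot, and some LD samples came from an earlier slaughter, which the labels do not identify and for which that age and feedlot time may not hold. The labels also do not say which arrays come from the same animal, and the depots were taken from a shared set of steers, so the p-values, which treat arrays as independent, are too small between breeds where animals recur, and those between depots leave out any pairing by animal.

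Adipocytes secrete leptin in proportion to their fat store, and through its receptor in the brain it signals how much fat a body carries. Adiponectin, made almost only by mature adipocytes, raises fatty acid oxidation and insulin sensitivity in liver and muscle. Adipsin is the complement protease factor D, chemerin attracts immune cells, visfatin is the enzyme that recycles nicotinamide into NAD in nearly all cells, and angiotensinogen is the precursor that renin cleaves, while resistin comes from adipocytes in mice and largely from myeloid cells in humans.

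A level below is log2 of the scanner's processed signal minus the array's own 75th percentile over probes, so 0 is a bright probe near that percentile and a step of 1 is a factor of 2. A probe's brightness depends on its sequence, so levels were compared between arrays and never between genes. Between 66.2% and 96% of probes were well above background on an array, and each lead probe was so on all 60 fat arrays. Scan day went with tissue: all 12 IMF arrays were scanned on day 3, all 12 Inter arrays on day 2, and 11 of the 12 SC arrays on day 1. The 10 myofibre markers (genes of contractile muscle fibres) were higher in IMF than in SC for all 10, and their mean level ran from 6.31 to 8.08 on the IMF arrays, from -4.31 to -2.83 on the SC arrays and from 8.55 to 9.09 on the LD pasture arrays, so the dissected IMF held muscle transcripts. On the Inter arrays the same mean ran from -3.80 to 5.98. The 9 adipocyte markers (PLIN1, CIDEC, CIDEA, FABP4, LIPE, AQP7, THRSP, PCK1 and GPD1) were each above background on 50% or more of any tissue's arrays. Of these, GPD1 alone was higher in LD pasture muscle than in SC, by 1.29, and it was kept in their mean.

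**Figure D1:**
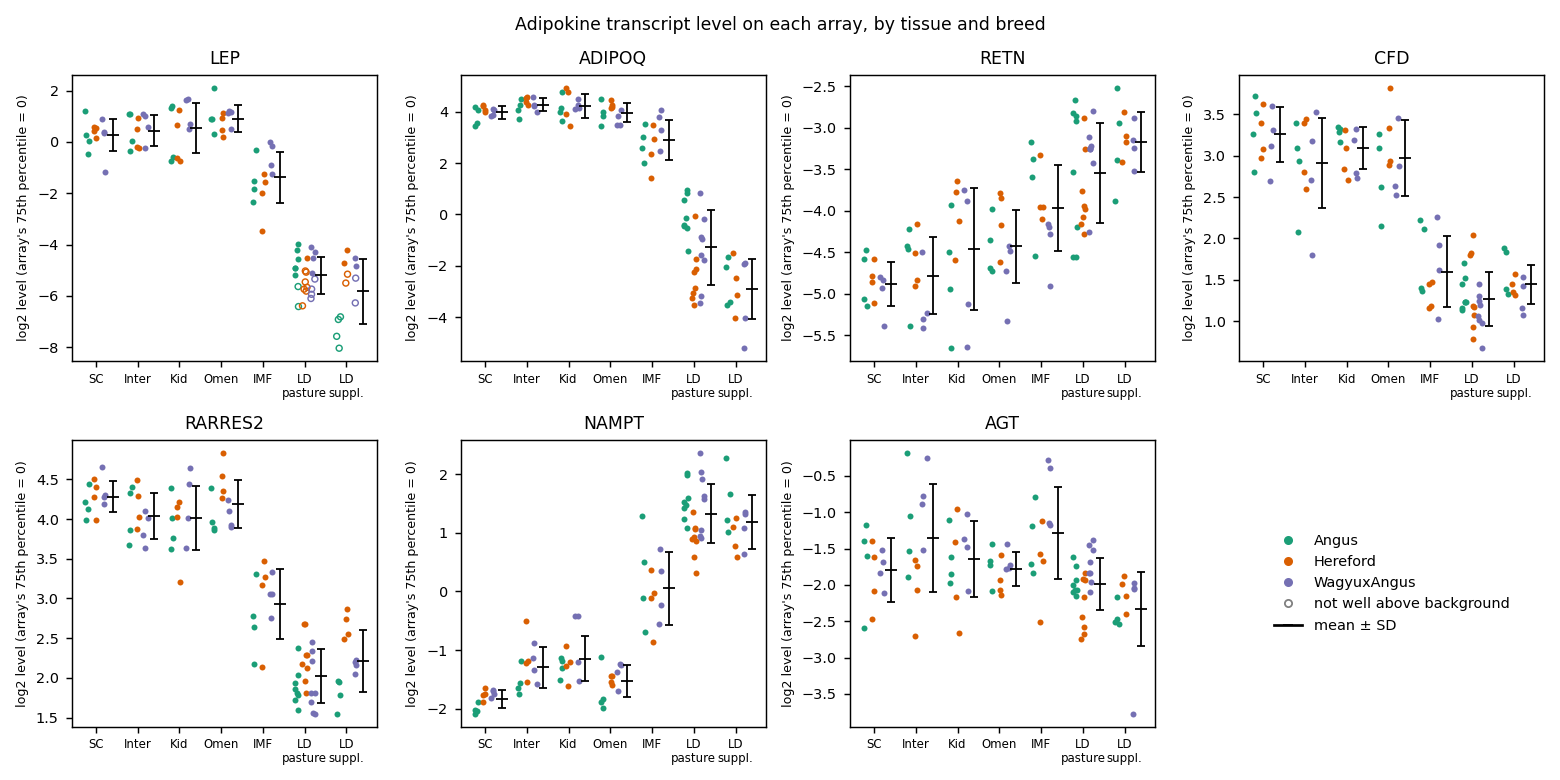
Log2 level of the lead probe of each of the 7 genes on every array (points), by fat depot and by muscle diet, coloured by breed, open where not well above background, with the mean and SD of each group and a vertical scale of its own per panel. LEP and ADIPOQ are highest in the 4 depots other than IMF, lower in IMF and lowest in muscle, NAMPT runs the other way, and AGT depot means lie within 0.51 of each other.

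Intramuscular fat was set against subcutaneous fat, the depot the study used as its reference. LEP, ADIPOQ, CFD and RARRES2 were lower in IMF, by 2.08-fold to 3.17-fold. NAMPT was 3.71-fold higher, and RETN and AGT were higher by smaller amounts that depended on the probe or on single arrays. All 7 passed the test (limma's moderated test with Benjamini-Hochberg adjustment over all tested probes, adjusted p under 0.05), against 64.2% of all tested probes, 31.2% higher and 33% lower, so a call by itself sets none of these genes apart. The fat is bulk tissue, in which fewer adipocytes and less RNA per adipocyte cannot be told apart.

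LEP had levels from -1.17 through a median of 0.37 to 1.19 on the 12 SC arrays, and from -3.46 through -1.40 to 0.00 on the 12 IMF arrays. It was 3.14-fold lower in IMF (difference -1.65, SE 0.32, adjusted p = 8.3e-05), and 8 of the 12 IMF arrays lay below the lowest SC array. ADIPOQ ran from 3.43 through 4.06 to 4.26 in SC and from 1.40 through 2.98 to 4.08 in IMF. Its level was 2.08-fold lower (difference -1.06, SE 0.23, adjusted p = 0.000264). The IMF arrays were spread more widely (SD 0.78 against 0.25 in SC), with the brightest of them inside the SC range.

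CFD, which cleaves factor B in the alternative complement pathway, ran from 2.70 through 3.29 to 3.72 in SC and from 1.02 through 1.46 to 2.26 in IMF. No IMF array reached the lowest SC array, and the difference was -1.66 (SE 0.15, adjusted p = 1.52e-09, 3.17-fold). RARRES2 ran from 3.99 through 4.28 to 4.66 in SC and from 2.14 through 3.06 to 3.48 in IMF. These ranges did not overlap either, with a difference of -1.35 (SE 0.14, adjusted p = 8.14e-09, 2.55-fold). Both genes kept these directions on a second probe, which followed the lead over the 60 fat arrays with r = 0.912 for CFD and 0.988 for RARRES2.

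NAMPT ran from -2.08 through -1.79 to -1.64 in SC and from -0.86 through -0.07 to 1.29 in IMF. Every IMF array was above every SC array, and the difference was 1.89 (SE 0.18, adjusted p = 2.52e-09). AGT ran from -2.60 through -1.65 to -1.17 in SC and from -2.52 through -1.19 to -0.28 in IMF. Those ranges overlapped along most of their length, and its difference of 0.51 (SE 0.21, adjusted p = 0.0403) lost its call in 12 of the 24 fits that each left out an array and turned to -0.11 with scan day as a block.

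RETN had 2 tested probes that disagreed. On the lead probe SC ran from -5.39 through -4.85 to -4.47 and IMF from -4.91 through -4.03 to -3.17, a difference of 0.92 (SE 0.16, adjusted p = 3.11e-05). On the other probe SC ran from -5.29 through -4.60 to -3.82 and IMF from -6.33 through -5.21 to -4.62, a difference of -0.88 (SE 0.21, adjusted p = 0.000911). The second probe was well above background on 9 of the 12 IMF arrays. Over the 60 fat arrays the probes correlated at r = -0.104, and over the 36 LD arrays at 0.368. Both were dim, and with normexp background correction in place of the scanner's own the lead probe's difference was -0.039, so these arrays give no settled direction for resistin between the depots.

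**Figure D2:**
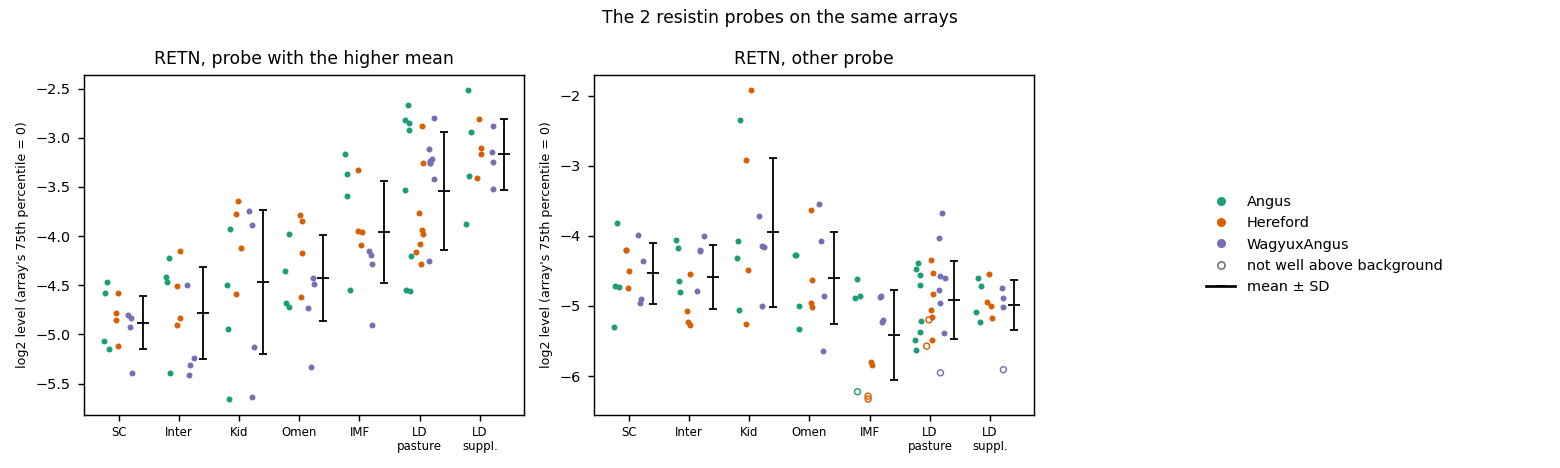
Log2 level of the tested RETN probes on each array, by tissue, coloured by breed, with mean and SD and open points where not well above background. From SC to IMF the lead probe is higher by 0.92 and the other probe lower by 0.88.

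Muscle RNA moved with these differences. A muscle share was set for each IMF array as the median over the 10 myofibre markers of its place between the SC mean and the LD pasture mean on the linear scale, and it ran from 17.5% through 41.7% to 65.7%. The markers disagreed, with IMF minus LD from -0.68 for MYL1 to -2.25 for TNNT3, and this spread was not carried into the share. A mixture of the SC and LD means of a gene at that share then gave a level for the same array. CFD and RARRES2 lay below the mixture on all 12 arrays, by 1.12 ± 0.46 and 0.75 ± 0.25 (SD, n = 12), and LEP on 11 of 12, by 0.92 ± 0.76. For ADIPOQ the gap was -0.26 ± 0.53, within its spread, with 7 arrays below and 5 above. NAMPT, higher in IMF than in SC, was below the mixture on 10 of 12 arrays (-0.23 ± 0.33), and AGT was above it on 11 of 12 (0.54 ± 0.61). RETN differed from it by 0.13 ± 0.36. The mixture assumes that IMF fat and SC fat hold the same cells, which was not tested. In the marker lists, 7 of 9 adipocyte markers were lower in IMF than in SC (median -1.40), as were all 6 macrophage markers (median -2.07) and 3 of 5 endothelial markers, while all 4 smooth muscle markers were higher (median 3.59). The part of these other cells in the adipokine differences was not tested.

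**Figure D3:**
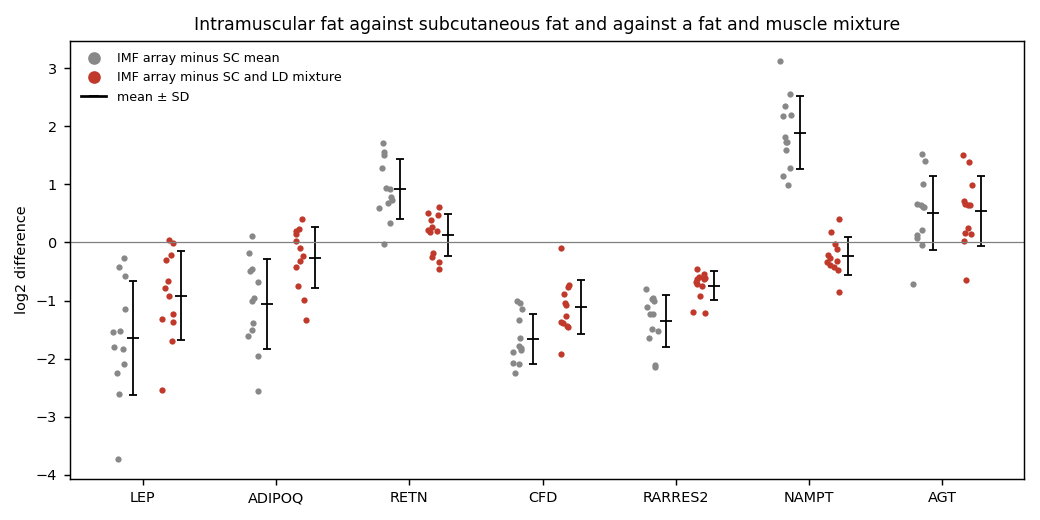
For each of the 7 genes, the level of each of the 12 IMF arrays minus the SC mean and minus the mixture of SC and LD means at that array's muscle share (log2, bars are mean and SD). CFD and RARRES2 stay below 0 on all 12 arrays against the mixture, while ADIPOQ falls on both sides and NAMPT moves from above to mostly below.

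Among the 12 IMF arrays the same genes followed the mean of the myofibre markers, in a family of 7 relations with two-sided permutation tests adjusted over the 7. LEP (r = -0.635, adjusted p = 0.0303 by permutation, rho = -0.713), ADIPOQ (r = -0.771, adjusted p = 0.00798, rho = -0.790), RARRES2 (r = -0.821, adjusted p = 0.00409, rho = -0.846) and AGT (r = -0.666, adjusted p = 0.0253, rho = -0.790) were lower where muscle markers were higher. NAMPT (r = 0.827, adjusted p = 0.00409, rho = 0.916) and RETN (r = 0.727, adjusted p = 0.0140, rho = 0.699) were higher there. CFD did not follow the markers (r = -0.160, adjusted p = 0.612 by permutation, rho = -0.231). Without the 2 arrays farthest from the median of the markers r was -0.673 for LEP, -0.704 for ADIPOQ, -0.775 for RARRES2, -0.660 for AGT, 0.830 for NAMPT, 0.715 for RETN and -0.529 for CFD. In the authors' value table LEP (r = -0.502, adjusted p = 0.112 by permutation) and AGT (r = -0.596, adjusted p = 0.0585 by permutation) no longer passed.

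Because scan day went with tissue, the clearest comparison on a single day was IMF against Omen on day 3, with 12 and 10 arrays. LEP was lower in IMF by 2.35, CFD by 1.42, RARRES2 by 1.31 and ADIPOQ by 1.12, NAMPT was higher by 1.51 and RETN by 0.48, all called, and AGT was 0.47 higher without passing (adjusted p = 0.0519). Over all 24 arrays of the pair all 7 were called, against 56.2% of tested probes, and AGT lost its call without the IMF array of Wagyu x Angus replicate 3 on slide 18 (adjusted p = 0.0502) and RETN in 10 of the 24 fits that each left out an array. On its other probe RETN was lower in IMF, with a difference of -0.82 from Omen (adjusted p = 0.00801) and of -0.83 from Inter (adjusted p = 0.00195). Against SC with scan day as a block, where a single SC array shares a day with IMF, CFD (-2.13), RARRES2 (-1.20) and NAMPT (2.09) kept their calls, and ADIPOQ (-0.67), LEP (-0.93) and RETN (0.51) did not. In a block over all 96 arrays, AGT alone lost its call. Against Inter 6 of the 7 were called (62.7% of tested probes), all but AGT, and against Kid 5 (55.8%), all but RETN and AGT. LEP was 1.83 lower in IMF than in Inter and 1.92 lower than in Kid, and NAMPT 1.35 and 1.20 higher.

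**Figure D4:**
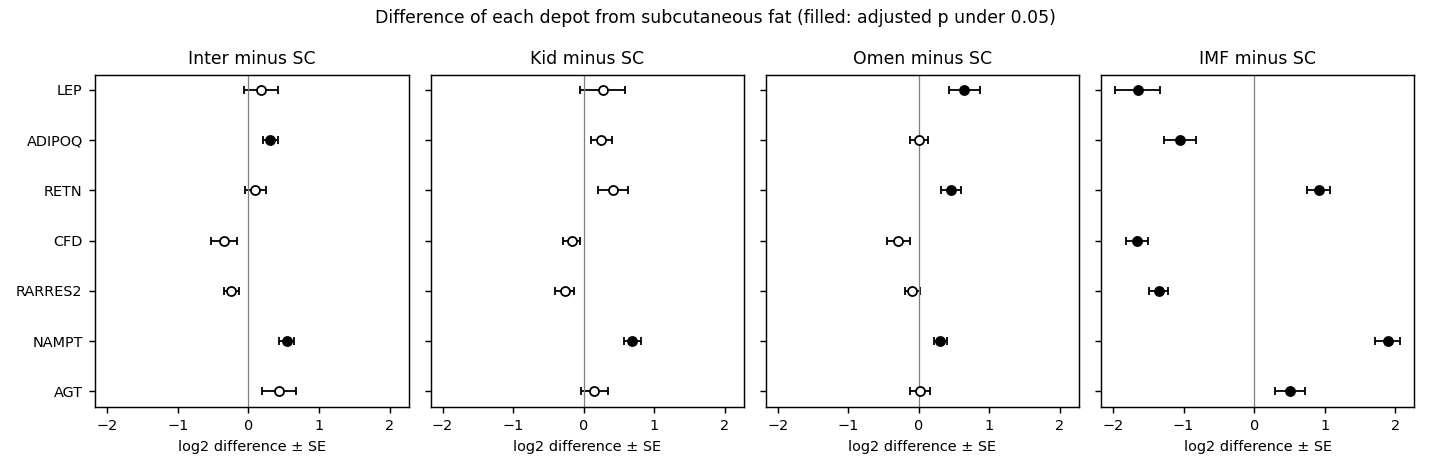
Difference of Inter, Kid, Omen and IMF from SC (log2, bars are SE) for the 7 lead probes, filled where the adjusted p is under 0.05. In IMF all 7 points are filled and run from -1.66 to 1.89, while in Inter, Kid and Omen no gene is called lower than in SC.

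The other 3 depots stood close to SC. NAMPT was higher than in SC in all 3, by 0.54 in Inter, 0.69 in Kid and 0.30 in Omen. The remaining calls were ADIPOQ in Inter and LEP and RETN in Omen. In Inter 2 of 7 genes were called, in Kid 1 and in Omen 3, against 48.8%, 41.7% and 45.7% of all tested probes. In the authors' own value table, which has no scaling between arrays and in which the median of all probes was 0.98, 0.83 and 0.82 above SC, all 7 genes passed in each of these depots, as did 31054, 26643 and 29014 of the 34227 tested probes.

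NAMPT on the Kid arrays ran from -1.62 through -1.20 to -0.42, all above the highest SC array at -1.64 (difference 0.69, SE 0.12, adjusted p = 6.42e-05), and the 5 Kid and 11 SC arrays of scan day 1 gave 0.72 (adjusted p = 0.00101). In Inter it ran from -1.75 through -1.27 to -0.51 and overlapped SC at its low end (adjusted p = 0.000284), and the scan-day fit over all 96 arrays gave 0.34 (adjusted p = 0.226). In Omen it ran from -1.98 through -1.50 to -1.12 (adjusted p = 0.00955), and that difference was -0.049 in the same scan-day fit. On the second NAMPT probe the Kid difference was 0.29 (adjusted p = 0.0736). Markers of other cells moved in these depots as well. Against SC, 3 of 10 myofibre markers were higher and 1 lower in Kid, 5 higher and 0 lower in Inter, and 0 higher and 6 lower in Omen, and the mean of the list reached 0.31 in Kid, 5.98 in Inter and -3.36 in Omen against -2.83 in SC. Of the 6 preadipocyte and fibroblast markers 4 were lower and 1 higher (DLK1) in Kid, 2 lower and 0 higher in Inter and 6 lower in Omen, and of the 5 endothelial markers 2 were higher and 1 lower in Kid. The endothelial KDR and TEK were also higher in Inter (0.80 and 0.325) and in Omen (1.06 and 0.565), with PECAM1 and CLDN5 lower in Inter. The macrophage marker CD163 was lower in each depot, while CD14 was higher in Kid and CSF1R in Inter. The part of these cells in the NAMPT differences was not tested.

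LEP in Omen ran from 0.18 through 0.92 to 2.12, 0.64 above SC (adjusted p = 0.0203), and 4 depots had medians within 0.37 to 0.92. That call was lost with slide as a random block (adjusted p = 0.0542), with one spread over the 60 fat arrays (0.0849), on the LEP probe outside the tested set (difference 0.34, adjusted p = 0.133) and in the scan-day fit over all arrays (difference 0.30, adjusted p = 0.611). ADIPOQ in Inter ran from 3.70 through 4.27 to 4.59, 0.31 above SC (adjusted p = 0.0191), and the sign turned to -0.12 in the scan-day fit over all arrays. RETN in Omen was 0.45 above SC on the lead probe (adjusted p = 0.0132) and -0.067 on the other. CFD, RARRES2 and AGT were called in none of the 3 depots: CFD means were 3.26 in SC, 3.09 in Kid, 2.97 in Omen and 2.91 in Inter, and RARRES2 means 4.28, 4.01, 4.19 and 4.04. In the scan-day fit over all arrays CFD was called lower than in SC in Inter (difference -0.76, adjusted p = 0.0026) and in Omen (difference -0.63, adjusted p = 0.0112).

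Ordered by mean level, LEP ran Omen (0.91), Kid (0.53), Inter (0.44), SC (0.27) and IMF (-1.38), with neighbours among the highest 4 closer together than their SDs of 0.52 to 0.97. ADIPOQ ran Inter (4.27), Kid (4.22), SC (3.97), Omen (3.96) and IMF (2.91). NAMPT ran IMF (0.06), Kid (-1.15), Inter (-1.29), Omen (-1.53) and SC (-1.84). AGT ran IMF (-1.28), Inter (-1.36), Kid (-1.64), Omen (-1.78) and SC (-1.79). Among Inter, Kid and Omen none of the 7 genes was called in any of the 3 pairs by limma (15.4%, 13.6% and 12.1% of tested probes). A single test over all 5 depots called 7 of 7 genes, against 87.2% of tested probes, with the smallest adjusted p for NAMPT (4.81e-15) and the largest for AGT (0.0363).

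The whole muscle was compared with both fats to see how far the adipokines of marbling can be read in it. Against SC, LEP, ADIPOQ, CFD and RARRES2 were lower in LD pasture muscle and NAMPT and RETN higher. In all, 6 of 7 were called, against 82.9% of tested probes. LEP ran from -6.41 through -5.14 to -3.96 in LD and was above background on 11 of 24 arrays only, so that its lower end is not measured. Its difference from SC was -5.46, and -2.84 with normexp, -3.91 on the other tested probe and -7.96 on the probe outside the tested set, so its size is not settled. ADIPOQ, above background on all 24, ran from -3.53 through -1.19 to 0.96 and was 37.8-fold lower. CFD ran from 0.67 through 1.21 to 2.04 and RARRES2 from 1.55 through 1.95 to 2.68, with differences from SC of -1.995 and -2.26 on the log2 scale. On their other probes these differences were -1.11 for CFD and -2.11 for RARRES2. NAMPT ran from 0.31 through 1.29 to 2.36, 8.94-fold above SC. AGT, at -2.74 through -1.95 to -1.38, differed from SC by -0.20, which did not pass. RETN was 1.34 higher on the lead probe and -0.38 on the other.

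IMF stood between muscle and the other fats for most of the genes. LEP and ADIPOQ were higher in IMF than in LD pasture muscle. ADIPOQ was 18.2-fold higher. The LEP difference was 3.81 on the log2 scale, 1.52 with normexp, 2.87 on the other tested probe and 6.54 on the probe outside the tested set, and with most LD arrays not above background its size is not settled. AGT (0.71), RARRES2 (0.91) and CFD (0.33) were higher in IMF on the log2 scale, and NAMPT was 1.27 lower. In the authors' value table the NAMPT difference was -0.53 and did not pass (adjusted p = 0.0674), while AGT (1.36), RARRES2 (1.57) and CFD (0.999) were further above LD there. In all 6 of 7 were called, RETN (-0.42) excepted, against 75.3% of tested probes. RETN was called lower with quantile normalization (-0.77, adjusted p = 0.000306) and with normexp (-0.60, adjusted p = 0.000286), and was 0.30 in the authors' table without passing (adjusted p = 0.213). The CFD difference lost its call without the IMF array of Wagyu x Angus replicate 3 on slide 18 (adjusted p = 0.0517), with slide as a random block (0.134), with arrays centred on their mean (0.0627) and in the scan-day fit over all 96 arrays (0.152), and was -0.14 on the second CFD probe. The 12 IMF and 8 LD arrays of scan day 3 gave 3.64 for LEP and 3.29 for ADIPOQ, and 0.49 for AGT, which did not pass (adjusted p = 0.0528).

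Within LD pasture muscle the level of adiponectin tracked the adipocyte markers. Across the 24 arrays the mean of those markers ran from -0.82 to 2.26, and ADIPOQ followed it with r = 0.942 (rho = 0.918, permutation p = 1e-05, the smallest that 100000 permutations can give, adjusted p = 7e-05 over 7 relations). Breed by breed r was 0.957 for Angus, 0.877 for Hereford and 0.965 for Wagyu x Angus (n = 8 each), and without the 2 arrays farthest from the median it was 0.939. LEP followed it at r = 0.70 (rho = 0.749, adjusted p = 0.000653 by permutation, 0.682 without the 2 farthest arrays), and within breeds at 0.866, 0.503 and 0.945, but its probe was above background on 6, 1 and 4 of the 8 arrays of these breeds, so that most of the values behind it, above all in Hereford, are unmeasured. NAMPT followed at r = 0.692 (rho = 0.687, adjusted p = 0.000653 by permutation, 0.754 without the 2 farthest arrays) over all 24 arrays, but its values within breeds were 0.051, -0.335 and 0.892. RARRES2 ran the other way at r = -0.628 (rho = -0.648, adjusted p = 0.00199 by permutation, -0.542 without the 2 farthest arrays), with 0.234, -0.690 and -0.559 within breeds. For NAMPT and RARRES2 the pooled relation thus did not hold in every breed. In the authors' value table the RARRES2 relation turned to r = 0.308 (adjusted p = 0.142 by permutation). RETN (r = 0.485, rho = 0.542) and AGT (r = 0.486, rho = 0.390) had adjusted p = 0.0207 by permutation. Without the 2 farthest arrays they were at 0.473 and 0.334, so that the AGT relation rests on those arrays here, though in the authors' value table it was closer over all 24 (r = 0.868, adjusted p = 2.33e-05 by permutation). CFD was at -0.063 (rho = 0.093, adjusted p = 0.769 by permutation), and at 0.565 in the authors' table (adjusted p = 0.00588 by permutation). On the 12 supplement arrays ADIPOQ alone passed (r = 0.758, rho = 0.846, adjusted p = 0.0348 by permutation), and without the 2 farthest arrays it was at r = 0.734 (adjusted p = 0.125 by permutation) and rho = 0.830 (adjusted p = 0.0325 by permutation). In the authors' value table LEP (r = -0.657, adjusted p = 0.0436 by permutation), CFD (r = 0.790, adjusted p = 0.00833) and NAMPT (r = 0.634, adjusted p = 0.0436) passed there too. The permutations treated arrays as exchangeable, yet slides of the same breed differed in the marker mean. In Wagyu x Angus on pasture it ran from 1.57 to 2.26 on slide 20 and from -0.37 to 0.61 on its other slides. The part of slide, scan day and slaughter in these relations was not tested.

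**Figure D5:**
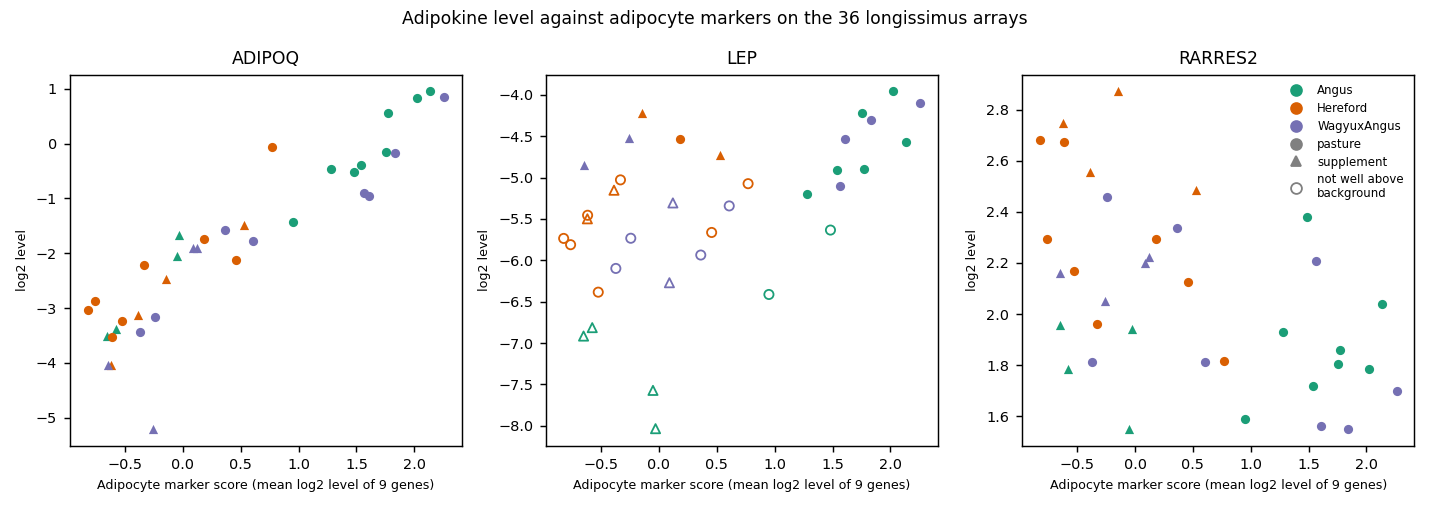
Log2 level of ADIPOQ, LEP and RARRES2 in muscle against the mean log2 level of the 9 adipocyte markers, a point per LD array, coloured by breed, with circles for pasture, triangles for supplement and open symbols where the probe was not well above background. ADIPOQ rises with the markers in every breed (pasture r = 0.942), LEP less closely (0.70), and RARRES2 falls (-0.628), which turned to 0.308 in the authors' value table.

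Diet was compared in muscle only. The study's methods name supplement feeding only for LD samples of the earlier slaughter, and pasture feeding at both slaughters. The labels do not give the slaughter, so diet and slaughter time cannot be told apart here. The part of slaughter was not tested. ADIPOQ was 3.09-fold lower in LD of supplement-fed animals, with levels from -5.20 through -2.80 to -1.49 on the 12 arrays against -3.53 through -1.19 to 0.96 on the 24 pasture arrays (difference -1.63, SE 0.42, adjusted p = 0.0102). Of the 7 genes it was the 1 called, against 11.2% of tested probes. AGT was nearest of the others at -0.34 (adjusted p = 0.120). Adipocyte markers moved with it: 4 of 9 (PLIN1, CIDEC, CIDEA and THRSP) were lower and none higher, and with their mean as a covariate the ADIPOQ difference was -0.15 (adjusted p = 0.741).

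By breed, ADIPOQ means were -0.08 on pasture and -2.65 on supplement in Angus, -2.35 and -2.78 in Hereford, and -1.39 and -3.26 in Wagyu x Angus. The difference was called within Angus (-2.58, adjusted p = 0.0124) and not within Hereford (-0.43) or Wagyu x Angus (-1.87), and a test of diet by breed did not call it (adjusted p = 0.240). Each supplement breed was hybridised on a slide of its own, and no slide held both diets, so diet and slide cannot be told apart within a breed. With slide as a random block the adjusted p was 0.549. Within scan day 1 the difference was -0.58 (8 against 8 arrays) and within day 2, where all 4 supplement arrays were Angus, -2.97. Slides of the same breed and diet also differed, as with Wagyu x Angus on pasture, where 4 arrays of the same slide averaged -0.29 and the other 4 arrays, on slides of another day, lay between -3.43 and -1.57.

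LEP was not called for diet over the 36 arrays (difference -0.63, adjusted p = 0.198), but the diet effect differed between breeds (diet by breed, adjusted p = 0.00242, against 16.2% of tested probes called). Within Angus it was called (adjusted p = 0.00998). The lead probe was above background on 6 of 8 Angus pasture arrays and on 0 of 4 Angus supplement arrays, so its level on supplement is not measured there. The other tested probe was above background on 6 of the 8 and on 3 of the 4, with means of -4.84 on pasture and -5.86 on supplement. On the lead probe 1 of 8 pasture and 2 of 4 supplement arrays were above background in Hereford and 4 of 8 and 2 of 4 in Wagyu x Angus, so no direction is given there. The diet by breed call was absent on the other tested probe (adjusted p = 0.576), with a slide block (adjusted p = 0.575) and with normexp. Diet by breed was also called for the adipocyte markers PLIN1, LIPE, AQP7 and PCK1, the smooth muscle markers ACTA2 and CNN1, the mesothelial MSLN and the lymphocyte marker MS4A1. No myofibre, macrophage, endothelial or fibroblast marker was called. The part of these cells was not tested.

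The LEP probe outside the tested set, brighter in fat, gave a wider view of the same arrays. It was above background on 13 of 24 pasture arrays and on 0 of 12 supplement arrays. In Angus all 8 pasture arrays were above background with a mean of -1.46, and on this probe the 4 supplement arrays were at least 27.3-fold lower (limit -6.23, the mean over arrays of the higher of the dimmest signal that counts as above background and the signal of the probe). In Wagyu x Angus 4 of 8 pasture arrays were above background, and in Hereford 1 of 8 was. Over the 60 fat arrays it followed the lead probe with r = 0.966, and over the 36 LD arrays with 0.519. This probe was looked at after the values were seen. By the same rule the lead probe gave a bound of 2.39-fold in Angus. The other tested probe had means there of -4.84 on pasture and -5.86 on supplement, so the size of the difference is not settled. No slide held both diets.

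Breeds differed little in the fat depots. In the 60 fat arrays with depot in the fit, none of the 7 genes was called for breed by limma (AGT was nearest at adjusted p = 0.0609), against 3.2% of tested probes. Of the single pairs, Wagyu x Angus against Hereford called AGT, 0.56 higher (SE 0.15, adjusted p = 0.0264), and RETN, 0.49 lower on the lead probe (adjusted p = 0.0488) and 0.21 higher on the other, against 3.44% of tested probes. The RETN call was lost in 35 of the 60 fits that each left out an array. Hereford against Angus and Wagyu x Angus against Angus called none (0.567% and 0.754% of tested probes). No probe of the 34227 was called for depot by breed, with 2526 at an unadjusted p under 0.05.

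In LD pasture muscle ADIPOQ (adjusted p = 0.0221), AGT (0.0255) and NAMPT (0.0319) were called for breed, 3 of 7 against 14.7% of tested probes. ADIPOQ was 2.28 lower in Hereford than in Angus (adjusted p = 0.0129), with Angus from -1.43 to 0.96 and Hereford from -3.53 to -0.05. NAMPT was lower in Hereford, whose arrays ran from 0.31 to 1.35, than in Angus (by 0.66, range 1.08 to 2.01) and in Wagyu x Angus (by 0.67, range 0.91 to 2.36), calls lost in 11 and 8 of the 24 fits that each left out an array. AGT was 0.56 higher in Wagyu x Angus (-2.10 to -1.38) than in Hereford (-2.74 to -1.84). The pairs called 8.78% (Hereford against Angus), 1.72% (Wagyu x Angus against Angus) and 10.8% (Wagyu x Angus against Hereford) of tested probes. Some markers of other cells were called for breed as well: CDH5 and KDR (endothelial), COL1A1 and DLK1 (preadipocyte and fibroblast), TTN (myofibre) and MSLN (mesothelial). The part of those cells was not tested. Adipocyte markers moved with breed here, 5 of 9 being lower in Hereford than in Angus and none higher. With their mean as a covariate none of the 3 genes was called and the ADIPOQ difference was 0.46, and none was called with slide as a random block.

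The receptors and partners of the adipokines were read from lists. In IMF against SC, where 31.2% of all tested probes were higher and 33% lower, 3 of 14 measured receptor and signalling genes were higher and 6 lower (median -0.06 against -0.00 for all probes). The adiponectin receptors parted: ADIPOR1 was 0.32 higher (adjusted p = 0.000523) and ADIPOR2, the form prominent in liver, 1.15 lower (adjusted p = 2.28e-06). CDH13, the T-cadherin that binds circulating adiponectin, was 1.56 lower, and APPL1, the adaptor of the adiponectin receptors, 0.64 higher. IGF1R was 1.67 higher, and C3AR1, the receptor of the complement fragment C3a, 1.59 lower. These IMF arrays are the ones with a median muscle share of 41.7%, all 6 macrophage markers lower and all 4 smooth muscle markers higher, and the part of those cells in the list counts was not tested.

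Of 25 other secreted factors 4 were higher and 14 lower in IMF (median -0.69). CFB, the complement factor that adipsin cleaves, was 3.21 lower (adjusted p = 6.77e-07), and C3, the central complement protein, 1.36 lower. ANGPTL4, an inhibitor of lipoprotein lipase, was 1.98 lower and the retinol carrier RBP4 1.21 lower, and SPX (spexin) was 1.94 higher. Of 12 genes of the renin-angiotensin system and of NAD synthesis 2 were higher and 6 lower, with ACE, which makes angiotensin II, 1.89 higher, ATP6AP2, the renin receptor, 1.53 lower, and QPRT, the enzyme of NAD synthesis from quinolinate, 2.63 lower. Of 7 genes of adiponectin assembly and adipokine transcription 1 was higher (PPARGC1A, 1.51) and 5 were lower, among them PPARG (-1.35) and CEBPA (-1.71), the factors that drive adipocyte genes.

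In Omen against SC, where 45.7% of tested probes were called, 7 of 25 secreted factors were higher and 9 lower. IL6 was 4.05 higher (SE 0.70, adjusted p = 5.22e-05), the adiponectin paralogue C1QTNF3 2.04 higher and the chemokine CCL2 1.98 higher. Of the 12 renin-angiotensin and NAD genes 2 were higher, with ENPEP at 1.70, and 8 lower, with MME at -2.06. Mesothelial markers, which mark the lining of the abdominal cavity, moved too, 2 of 4 higher and 1 lower, and their part was not tested. For diet in LD, where 11.2% of tested probes were called, the counts were 0 of 14 receptors higher and 1 lower (ADIPOR2, -0.43), 3 of 25 secreted factors higher and 1 lower (RBP4, -0.76), 1 of 12 higher and 1 lower, and 0 of 7 higher and 1 lower (CEBPA, -0.83).

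Among themselves the adipokines shared some of their variation. With depot means taken out, r over the 60 fat arrays was 0.675 for LEP with AGT, 0.608 for ADIPOQ with RARRES2 and 0.529 for LEP with ADIPOQ, and 0.068 for LEP with CFD. In the 24 LD pasture arrays LEP and ADIPOQ correlated at 0.735 and CFD with AGT at -0.613. These are descriptions, and the arrays share scan days, slides and probably animals.

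The genes whose levels most resembled each adipokine over the 60 fat arrays were taken from 9563 named genes, and depot differences are part of the likeness. They were C8orf42 (r = 0.900), IDH1 and AIM1 for LEP, and PDE3B (0.896), QPCTL and PMM2 for ADIPOQ. CFD was most like IKBKB (0.887), ATXN2 and DUSP6, and RARRES2 most like NEK6 (0.907), MAP7D3 and EPB41L4A. NAMPT was most like PPM1B (0.918), ZMAT2 and POLR3D, and among the genes most like the lead RETN probe were SLC16A10 (0.834) and ZBTB32 (0.826). AGT had no close companion, with NMB at 0.628, DHRS3 at 0.601 and TXNL4B at 0.599.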

How the data were processed

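RNA from 60 fat and 36 muscle samples was hybridised to bovine Agilent arrays and scanned with a single dye. Per the labels, the authors deposited each array's Feature Extraction (version 10.7.3.1) output, whose spot intensity values are linear and were background-corrected by that software. They also deposited a value table on the log2 scale, which equalled log2 of median signal minus median background, floored at 1, for all 3285792 values within 0.0001, with no scaling between arrays. The direction and base of that table were thus settled from the scanner values.

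Here log2 of the processed intensity was averaged over the spots of a probe, without spots flagged as outliers, and each array's 75th percentile over non-control probes was subtracted. The 34227 probes of the authors' table were tested, of 43653 that are not controls, and 21445 of them (62.7%) could be named, for 10653 genes. Models were fitted with limma 3.58.1 in R 4.3.3 (lmFit, eBayes) on the arrays of each comparison, with Benjamini-Hochberg adjustment over all tested probes and a threshold of 0.05. Breed comparisons in fat carried depot as a term, and the scripts were tested on simulated data. Correlations with marker means used 100000 permutations (scipy 1.17.1). Diet, slide and day were checked by the alternatives in the closing section. Groups came from the labels, whose replicate number was the position of the array on its slide for all 96 arrays. With no counts, precision is set by the number of arrays, and p-values measure the spread between these samples. Per the study's methods the 4 arrays of a breed in a fat depot come from different animals. For all 96 samples the study speaks of 4 individual replicates per treatment cell, but it does not say which LD arrays form a cell.

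The rule for named genes took all 7 adipokines, every measured gene of 4 lists past the threshold as candidates for naming, and the 3 genes most like each adipokine. The members and lists were chosen with earlier results of these data known. Probe sequences and genome coordinates were not used here. A few genes that the rule would name are not reported here.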

Additional observations from a re-analysis of the deposited data

Results flagged for a closer look

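In groups of 4 to 8 arrays, 6 arrays stood far from the rest of their group for a gene, among 147 groups and genes tested, where chance gives about 5 percent. LEP in Omen of Wagyu x Angus, replicate 1 on slide 11, was at 0.506, with the other arrays at 1.112 to 1.213. RETN on the lead probe was at -4.907 in IMF of Wagyu x Angus, replicate 2 on slide 8, and at -4.257 in LD pasture of Wagyu x Angus, replicate 1 on slide 13. AGT was at -2.173 in LD supplement of Angus, replicate 4 on slide 1, at -3.77 in LD supplement of Wagyu x Angus, replicate 4 on slide 6, and at -1.442 in Omen of Wagyu x Angus, replicate 1 on slide 7.

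The effect of diet on LEP in LD differed between the breeds (limma's test of diet by breed, adjusted p = 0.00242), on a probe near background. In Angus 6 of 8 pasture and 0 of 4 supplement arrays were above background on it, and 6 of 8 and 3 of 4 on the other tested probe, with means of -4.84 and -5.86 there and no diet by breed call (adjusted p = 0.576). In Hereford 1 of 8 pasture and 2 of 4 supplement arrays were above background on the first of these probes, and no direction is given. Some adipocyte and smooth muscle markers were called for diet by breed too, and their part was not tested.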

How the results depend on the processing

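Numbers here count how many of the 7 genes passed in a comparison, unless given as a log2 difference or an r. As first reported they were 7 for IMF minus SC, 2 for Inter, 1 for Kid and 3 for Omen minus SC, 6 for IMF minus LD and for LD minus SC, 1 for diet, 3 for breed in LD, 0 for breed in fat, 1 for diet by breed, 0 for depot by breed, 7 for the test over 5 depots and 18 of 42 for the other depot pairs.

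The authors' table has no scaling between arrays, and the median of all probes there was higher by 0.98 in Inter, 0.83 in Kid and 0.82 in Omen than in SC. In it 7, 7 and 7 genes passed for Inter, Kid and Omen, 2 for diet and 0 for diet by breed, with 31054, 26643, 29014, 5923 and 850 of the 34227 tested probes. These differences turned positive: CFD 0.63, 0.73 and 0.56 and RARRES2 0.74, 0.62 and 0.73 in Inter, Kid and Omen, and ADIPOQ 0.82 in Omen. The correlations with adipocyte markers in LD became 0.565 for CFD and 0.308 for RARRES2. Quantile normalization left 1 for Omen. With normexp, Kid had 3 and diet by breed 0, and RETN minus SC was -0.039 for IMF, -0.59 for Inter, -0.32 for Kid and -0.42 for Omen.

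With each other probe in place of the lead, Kid and diet by breed had 0. RETN was -0.83, -1.47, -0.82 and -0.88 for IMF minus Inter, Kid, Omen and SC, -0.38 for LD minus SC, -0.067 for Omen minus SC and 0.21 for Wagyu x Angus minus Hereford in fat, and CFD was -0.14 for IMF minus LD. With the LEP probe outside the tested set, chosen after seeing the data, diet had 2, with that probe above background on 0 of 12 supplement arrays.

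Slide as a random block left 1 for Inter and 0 for diet, breed in LD and diet by breed. Scan day as a block left 3 for IMF minus SC, where AGT was -0.11, 0 for Omen, diet and breed in LD, and 1 for breed in fat. It could not be fitted for Inter minus SC or IMF minus Inter, which share no day. Over all 96 arrays 1 passed for Omen, which was CFD (-0.63) and none of the 3 called before, 2 for Inter, which were CFD (-0.76) and RETN and neither of those called before, and 1 for breed in fat. That fit gave -0.12 for ADIPOQ and -0.76 for RETN in Inter and -0.049 for NAMPT in Omen. Within scan day 2, added after seeing the data, diet had 2 and the pair Inter and Kid 1. With the adipocyte markers as a covariate diet and breed in LD had 0, and ADIPOQ in Hereford minus Angus was 0.46. Against the SC and LD mixture NAMPT in IMF was -0.23. One spread over the 60 fat arrays left 1 for Inter and 0 for Omen. Within Angus Inter and Omen had 0 and diet 2, within Hereford Inter, Kid, Omen and diet had 0, and within Wagyu x Angus IMF minus SC had 4, Inter, Kid, Omen and diet 0 and the other pairs 10, with 4 arrays a depot. The methods' t-test with Benjamini-Hochberg adjustment left 6 for IMF minus SC.

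With the replicate number as a block, Kid had 2 and no other count moved by over 1.5 times. The numbers do not pair samples: same-numbered arrays of different groups correlated at a median r of 0.0089 (-0.423 to 0.513 over 405 pairs) in their deviations from group means, against -0.0032 for other numbers.

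Leaving out each array in turn gave 6 to 7 genes for IMF minus SC, 2 to 4 for Inter, 1 to 2 for Kid, 3 to 4 for Omen, 5 to 7 for IMF minus LD, 6 to 6 for LD minus SC, 1 to 1 for diet, 1 to 3 for breed in LD (1 without Hereford pasture replicate 3 on slide 24), 0 to 1 for breed in fat, 1 to 1 for diet by breed, 0 to 0 for depot by breed, 6 to 7 over the 5 depots and 17 to 19 for the other pairs. Over the alternatives other than leaving out an array, the 62 results that passed gave 814 values, of which 666 kept their direction and side of the threshold, 129 no longer passed and 15 turned direction. The other 4, taken against the SC and LD mixture, kept their direction but moved by their SD or more. LEP in LD lies near background, which limits its values there.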
